A study of Mus musculus with 24 samples.

Results

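The 9 mouse genes described here encode 6 STAT transcription factors (Stat2, Stat3, Stat4, Stat5a, Stat5b and Stat6) and 3 Janus kinases (Jak1, Jak2 and Jak3). A peak of open chromatin was counted as belonging to one of them when, of all mm10 RefSeq protein-coding gene bodies, that gene's was the nearest to the summit of the peak, at a distance of at most 50 kb. By this rule 1057 of the 1274891 peaks in 24 libraries lay at the 9 genes, out of 21887 protein-coding genes. Overlapping peaks were merged across libraries, and a merged region found in at least 2 libraries was kept, which left 67 regions at the 9 genes out of 80598. The rule itself uses position alone and no measured value. Nearness does not show which gene a region regulates.

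Bone marrow of C57Bl/6 males was the source of the macrophages, whose chromatin was read by ATAC-seq, in which a transposase cuts accessible DNA in intact nuclei and the cut fragments are sequenced. There were 4 groups of 6 libraries. Control unstimulated and diabetic unstimulated macrophages received no stimulus, while control stimulated and diabetic stimulated macrophages received lipopolysaccharide (LPS, a bacterial cell wall component) at 100 ng/mL together with interferon-gamma (IFNγ) at 10 ng/mL. The diabetic mice had been given streptozotocin, which is toxic to insulin-producing beta cells, and control mice were untreated wild type. The duration of stimulation was not taken from the labels, because the protocol text names a 6 h culture only for samples of another cytokine. It also says that baseline cells were lysed at once, so time in culture and the stimulus cannot be told apart. Each library used 50000 cells, in which a site open in few cells and a site weakly open in many cannot be told apart.

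Janus kinases sit on the inner tails of cytokine receptors, and when a cytokine joins the receptor chains they phosphorylate each other, the receptor and the STAT proteins that dock there. The phosphorylated STATs pair up, enter the nucleus and bind DNA. In macrophages, IFNγ signals through Jak1 and Jak2, type I interferons use Stat2 in a complex that binds interferon-stimulated response elements, and LPS acts on the same genes partly through the interferon that it induces. Stat3 carries the signal of IL-6 and IL-10, Stat6 that of IL-4 and IL-13, Stat4 that of IL-12, and the near-duplicate pair Stat5a and Stat5b that of GM-CSF and other growth factors. Jak3 works with the common gamma chain of the IL-2 receptor family.

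The promoters of the pair Stat5a and Stat5b were read first, because chromatin was open at both in every library and they share a stretch of sequence. The sequences are those of RefSeq on build GRCm38.p6, from 250 bases before to 50 bases after an annotated start. The window at the inner start of Stat5a lay at chr11:100860234-100860533 on the plus strand, and that at the inner start of Stat5b at chr11:100822521-100822820 on the minus strand. Capitals mark runs of at least 6 bases that were identical in the alignment of the pair.
Stat5a: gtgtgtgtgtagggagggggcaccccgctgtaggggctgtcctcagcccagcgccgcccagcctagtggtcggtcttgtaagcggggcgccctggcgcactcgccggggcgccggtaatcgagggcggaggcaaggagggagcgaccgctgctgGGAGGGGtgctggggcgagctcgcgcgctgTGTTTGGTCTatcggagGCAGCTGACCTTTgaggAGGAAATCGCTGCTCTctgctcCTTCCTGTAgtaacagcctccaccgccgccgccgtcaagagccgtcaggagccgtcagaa
Stat5b: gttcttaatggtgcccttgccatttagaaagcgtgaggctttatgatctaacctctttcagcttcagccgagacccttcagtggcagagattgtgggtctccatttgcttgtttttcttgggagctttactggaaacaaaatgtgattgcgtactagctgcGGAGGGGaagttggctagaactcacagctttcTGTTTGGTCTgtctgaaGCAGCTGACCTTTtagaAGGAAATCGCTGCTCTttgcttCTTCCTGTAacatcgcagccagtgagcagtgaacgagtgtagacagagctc
Of 100 aligned bases, 83 were the same in both genes (83.0%). The stretch ran from 103 to 2 bases before the inner start of Stat5a, and from 94 bases before to 8 bases after the inner start of Stat5b. Its longest shared run held 16 bases, AGGAAATCGCTGCTCT, which occurred in the promoter windows of 0 other genes. The outer Stat5b start shared less with Stat5a, with 64 of 100 aligned bases identical (64.0%). At the Stat5a window 24 peaks lay in 24 libraries, and 14 of their summits fell inside the aligned stretch. At the inner Stat5b window 16 of 25 summits did so. No shared run was as long as the 50-base reads.

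The Stat2 promoter is shown because it holds the core of an interferon-stimulated response element, the kind of site that the Stat2 complex itself binds. The window lay at chr10:128270248-128270547 on the plus strand, and the capitals mark this core (GAAA, any 2 bases, GAAA), read here on the opposite strand, which began 222 bases before the start.
Stat2: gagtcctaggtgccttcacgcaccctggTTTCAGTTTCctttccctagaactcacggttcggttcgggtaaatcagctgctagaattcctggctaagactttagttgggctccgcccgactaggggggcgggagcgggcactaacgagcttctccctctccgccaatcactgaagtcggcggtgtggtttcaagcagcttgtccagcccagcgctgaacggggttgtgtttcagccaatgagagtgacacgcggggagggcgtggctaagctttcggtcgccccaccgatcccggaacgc
Among 12 promoter windows of the 9 genes, 2 held this core on either strand, against 3.44% of 32851 windows in the genome. The other was a window at an inner start of Stat4, where GAAAGTGAAA began 97 bases before the start. The interferon-gamma-activated site TTCNNNGAA, the palindrome that STAT pairs bind, was in 0 of the 12 windows and in 8.3% of all windows. The AP-1 motif TGANTCA was in 0 of 12 (7.81% of all windows), and the PU.1 motif GAGGAAGT in 0 of 12 (3.2%). A match to the NF-kB motif was found in 1 of the 12, at Stat5a (GGGGCACCCC, 234 bases before the start), against 8.46% of all windows. These are matches of letters on both strands, in a window of 300 bases, and say nothing of binding.

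List length ran from 41385 to 61861 peaks. The control stimulated lists were the shortest, at 47268 ± 4535 peaks (SD, n = 6), against 55990 ± 3486 in control unstimulated, 55522 ± 4925 in diabetic unstimulated and 53703 ± 4511 in diabetic stimulated libraries. The lowest background in a list, which follows sequencing depth, ranged from 0.664 to 1.01 tags at a summit, with group medians of 0.82 to 0.884. As a check of the cell type, the promoter windows of 5 of 10 macrophage marker genes were matched, of which 3 had a peak in all 24 libraries and 3 to 5 had one in each library. Those of 5 T and NK cell markers, 3 B cell markers and 4 erythroid markers had none in any library. Of 4 neutrophil markers, Camp had a peak in every library, while Elane, Mpo and Ltf had none. Between 0 and 2 of 4 dendritic cell markers and between 0 and 1 of 3 mast cell markers had one. Of 2 stromal and endothelial markers matched, Pdgfra had none, and Kdr had a peak in every stimulated library and in some unstimulated libraries.

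Open chromatin at these genes was for the most part shared by all groups. Of the 67 regions, 19 were found in all 24 libraries (28.4%), near the 28.3% of all regions in the genome. A further 10 were seen in stimulated macrophages alone and 6 in unstimulated macrophages alone, most of these in few libraries. Such regions were not counted over the genome, so these numbers have no background share beside them. There were 45 regions inside gene bodies, 20 before a gene start and 2 beyond a gene end. Their median width was 408 bp, against 417 bp over all regions. Jak1 had the most regions, 22, followed by Stat4 with 12, Jak2 with 10, Stat3 with 8, Stat5b with 7, Stat6 with 5, Stat5a with 2 and Jak3 with 1, and no region was given to Stat2. At the edge of the 50 kb rule, the farthest regions inside it were at Jak1, 47017 bp away (5 stimulated and 2 unstimulated libraries), and at Jak2, 41666 bp away (12 and 12). Just outside it, a region 64081 bp from Jak1 was found in 4 stimulated and 8 unstimulated libraries.

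**Figure D1:**
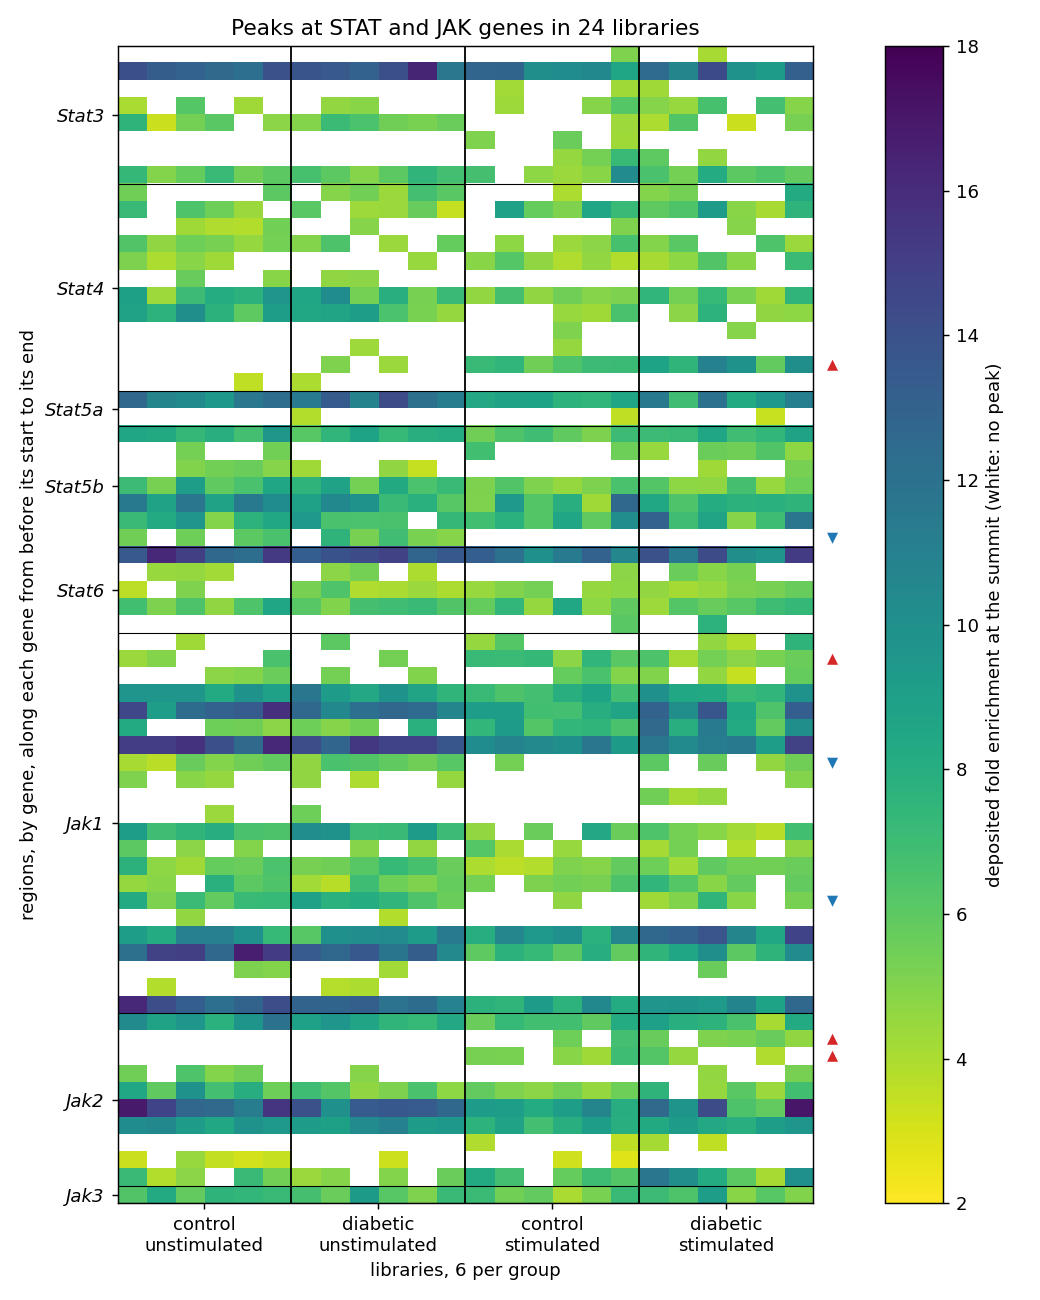
Heat map of the 67 regions (rows, grouped by gene) in 24 libraries (columns, 6 per group), with colour for the deposited fold enrichment at the summit and white where a library had no peak. Red triangles mark the 4 regions found in more stimulated libraries and blue triangles the 3 found in fewer; 19 rows are filled in all 24 libraries.

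A region was tested on the number of libraries in which it had a peak. Between the 12 stimulated and 12 unstimulated libraries, 7 regions at 4 of the genes passed a Benjamini-Hochberg adjusted p of 0.05 in Fisher's exact test (two-sided). Chromatin was found open in more stimulated libraries at 1 region of Stat4, 1 of Jak1 and 2 neighbouring regions of Jak2, here called gained. It was found in fewer stimulated libraries at 1 region of Stat5b and 2 of Jak1, here called lost. That made 4 gained (16%) and 3 lost (12%) of the 25 regions of the genes that could be tested. Over the genome, 9.19% of 31219 testable regions were gained and 18.9% were lost, so the counts at these genes are small beside a wide background of change. With lists cut to equal length, the genome-wide counts were 3172 gained (13.2%) and 3848 lost (16%) of 24076, in place of 2868 and 5901, and those at the 9 genes were 5 and 2 of 22. With only peaks of a −log10 q-value of at least 5, they were 1914 gained (7.4%) and 6143 lost (23.7%) of 25877, and 3 and 5 of 25 at the 9 genes. Where a library listed no peak, the signal was below the authors' threshold, and the chromatin there was not shown to be closed.

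**Figure D2:**
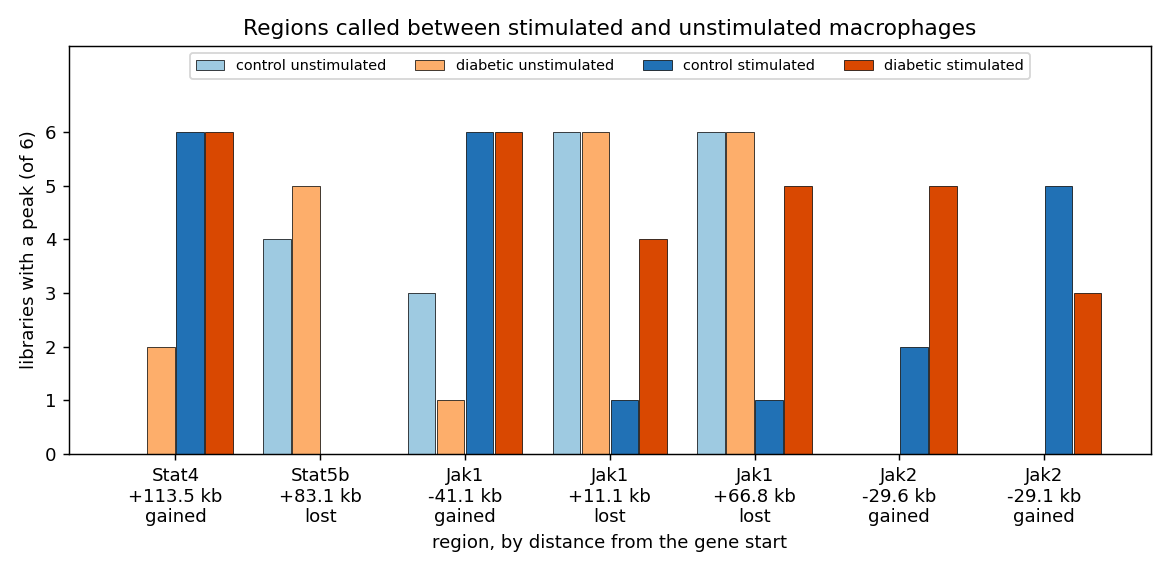
Bar chart of the number of libraries with a peak, of 6 in each of the 4 groups, for the 7 regions that passed the test, by gene and distance from the gene start in kb. Stat4 is at 6 of 6 in both stimulated groups; Stat5b is at 0 in both; the Jak1 regions that were lost stand at 1 in control stimulated and at 4 and 5 in diabetic stimulated macrophages.

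Among the STATs, the clearest gain lay deep inside Stat4, the transducer of IL-12 signals. The region, chr1:52100424-52100873, was centred 113532 bp into a gene body of 120084 bp. It had a peak in 6 of 6 control stimulated and 6 of 6 diabetic stimulated libraries, in 0 of 6 control unstimulated libraries and in 2 of 6 diabetic unstimulated libraries, replicates 2 and 4. In control stimulated libraries 1 to 6 its summit held 12, 14, 12, 11, 14 and 15 tags. In diabetic stimulated libraries 1 to 6 it held 17, 14, 22, 19, 9 and 19 tags, and in the pair of unstimulated libraries with a peak 9 and 7. Stimulated and unstimulated peaks overlapped only at 9 tags, in 1 library of each state, while both stimulated groups overlapped each other. The authors' fold enrichment over the local background was 5.46 to 7.45 in control stimulated (median 7.05), 5.81 to 10.9 in diabetic stimulated (median 9.27), and 5.08 and 4.39 in the diabetic unstimulated peaks. Over all libraries the count of 12 against 2 gave p = 6.73e-05 (Fisher's exact test, adjusted p = 0.00128). Within control macrophages the count of 6 against 0 gave an adjusted p of 0.0173 (Fisher's exact test), and within diabetic macrophages 6 against 2 gave an unadjusted p of 0.0606 (Fisher's exact test). It remained gained in the pooled test under all 8 other settings tried and without any 1 of the 24 libraries (highest adjusted p 0.00141, Fisher's exact test). Among those settings, the region midpoint and the distance of 10 kb changed only which regions were given to a gene. They could not change the p of this region.

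Stat4 had 11 other regions. The only one present in all 24 libraries lay 25806 bp into the gene (fold 4.28 to 10.2, median 6.89). A region 21503 bp into the gene was found in 11 stimulated but 5 unstimulated libraries (adjusted p = 0.0895, Fisher's exact test), and one 35206 bp into it in 7 and 12 (adjusted p = 0.0967, Fisher's exact test). With lists of equal length both passed, the former at 8 against 0 (adjusted p = 0.0092, Fisher's exact test) and the latter at 4 against 11 (adjusted p = 0.0412, Fisher's exact test). The remaining regions ranged from 2 to 20 libraries. No library had a peak overlapping either promoter window of Stat4. The region 21503 bp into the gene, chr1:52008363-52008802, lay just past the inner start, whose window chr1:52007990-52008289 holds the response element core named above.

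At Stat5b the change went the other way. The region chr11:100775732-100776101, centred 4823 bp beyond the end of the gene, was found in 4 of 6 control unstimulated and 5 of 6 diabetic unstimulated libraries and in 0 of 12 stimulated libraries. Its summits held 9, 10, 10 and 10 tags in control unstimulated libraries 1, 3, 5 and 6, and 14, 9, 12, 9 and 8 in diabetic unstimulated libraries 2 to 6. These are low peaks, with folds of 4.94 to 7.61. The count of 0 against 9 gave an adjusted p of 0.00388 (Fisher's exact test). In diabetic macrophages alone, 0 against 5 gave an adjusted p of 0.0559 (Fisher's exact test). With lists of equal length the region no longer passed the pooled test (adjusted p = 0.0938, Fisher's exact test). Of the other Stat5b regions, 3 were present in all 24 libraries and another, 53387 bp into the gene, in 23. The last pair had opposite counts, 7 stimulated against 2 unstimulated libraries 17947 bp into the gene and 2 against 7 at 32210 bp, and neither passed (adjusted p = 0.20 each, Fisher's exact test). The strongest of the 3, 44300 bp into the gene, had a median fold of 8.29 (4.3 to 12.6).

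Stat5a, the neighbouring partner of Stat5b, had its peaks almost all at its inner annotated start. The region chr11:100860136-100860883, centred 1059 bp into the gene, was found in 24 of 24 libraries. Its fold had medians of 11.1 in control unstimulated, 11.7 in diabetic unstimulated, 8.46 in control stimulated and 10.2 in diabetic stimulated libraries, with a range of 6.91 to 14.3 over all. The other Stat5a region, 2124 bp into the gene, was found in 3 libraries. Neither could pass the test, since one was present everywhere and the other in too few libraries.

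Stat3, which relays IL-6 and IL-10, had its leading peak at its start. The region chr11:100939144-100940187 held 41 to 79 tags at the summit (median 58, the highest among the 67 regions), and its fold ranged from 8.52 to 16.3 in 24 of 24 libraries. A further 4 regions, 3 inside the gene and 1 before it, were found in stimulated libraries alone, in 2 to 5 of them, and none was called. The most frequent of these, 34486 bp into the gene, was found in 5 stimulated libraries and in 0 without stimulation (adjusted p = 0.0967, Fisher's exact test). A region 12045 bp into the gene was found in 5 stimulated but 11 unstimulated libraries (adjusted p = 0.0895, Fisher's exact test). Stat3 thus held no called region in either direction.

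Stat6, the transducer of IL-4 and IL-13, also held none with all deposited peaks. Its strongest region was not at the start but 10890 bp before it, at chr10:127631578-127632332, with 24 to 60 tags at the summit and a fold of 9.67 to 16.2 (median 13.2) in 24 of 24 libraries. A merged region of 1777 bp that covered the start, with its median summit 556 bp into the gene, was also found in 24 libraries. Its strongest peak in each library had a lower fold (4.34 to 8.5, median 6.31). With only peaks of a −log10 q-value of at least 5, the part of this region at chr10:127642433-127643184 was found in 2 stimulated and 10 unstimulated libraries and was called lost (adjusted p = 0.0192, Fisher's exact test). Peaks reached the 300-base promoter window of Stat6 in 6 of 6 control unstimulated, 6 of 6 diabetic unstimulated, 4 of 6 control stimulated and 5 of 6 diabetic stimulated libraries. Those 21 peaks had a fold of 3.48 to 7.32 (median 5.16).

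Stat2 needs a separate statement, because the rule gave it almost nothing. Its promoter had a peak in 24 of 24 libraries, between chr10:128270049-128270926, with 27 to 62 tags and a fold of 10.5 to 19.4 (median 15.1). The summits of 22 of these 24 peaks were nearest to Apof, a gene whose body overlaps this start, and so did not count as Stat2 peaks. By the rule 3 peaks remained, 2 of them tied with Apof. The fold at the promoter had medians of 17.1 in control unstimulated, 16.6 in diabetic unstimulated, 12.2 in control stimulated and 13.9 in diabetic stimulated libraries. All 6 control stimulated values (10.5 to 13.8) lay below all 6 control unstimulated values (14.5 to 18.3), while the diabetic groups overlapped (11.3 to 15.9 against 13.3 to 19.4). The median fold of the 22770 regions present in every library separated the control groups likewise (7.35 to 8.26 against 9.35 to 10.5).

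Of the kinases, Jak2, which IFNγ receptors use together with Jak1, had its gained regions upstream. The region chr19:29222033-29222406, centred 29610 bp before the start, had a peak in 2 control stimulated, 5 diabetic stimulated and 0 of 12 unstimulated libraries (adjusted p = 0.0235, Fisher's exact test). Its neighbour chr19:29222469-29222924, centred 29076 bp before the start, had one in 5 control stimulated, 3 diabetic stimulated and 0 of 12 unstimulated libraries (adjusted p = 0.0101, Fisher's exact test). The former held 9 and 16 tags in control stimulated libraries 4 and 6, and 11, 9, 9, 9 and 7 in diabetic stimulated libraries 1, 3, 4, 5 and 6. The latter held 9, 9, 8, 7 and 17 tags in control stimulated libraries 1, 2, 4, 5 and 6, and 12, 8 and 6 in diabetic stimulated libraries 1, 2 and 5. Merging regions at most 100 bp apart, a setting added after these neighbours were seen, joined them. The joined region was found in 5 control stimulated, 6 diabetic stimulated and 0 unstimulated libraries (adjusted p = 0.000302, Fisher's exact test). It then passed within control macrophages (adjusted p = 0.042, Fisher's exact test) and within diabetic macrophages (adjusted p = 0.0242, Fisher's exact test). With that merging, 9.11% of testable regions over the genome were gained in the pooled test, 8.36% in control and 5.48% in diabetic macrophages. With lists of equal length, or only peaks with a −log10 q-value of at least 5, neither of the separate regions passed. With adjustment over all regions, the former did not pass (adjusted p = 0.0606, Fisher's exact test).

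Elsewhere at Jak2, 3 regions were found in 24 of 24 libraries. They lay 41666 bp before the start (median fold 8.07), 10092 bp before it (12.5) and at the start (9.11, with 35 to 68 tags). The one 10092 bp before the start, chr19:29241454-29242009, spread most in fold, from 5.82 to 17. A region 1239 bp into the gene was seen in 4 stimulated libraries alone and one 2143 bp into it in 2 stimulated and 6 unstimulated libraries, and neither passed. A region 19528 bp into the gene, in 11 and 9 libraries with all peaks, was called gained at 10 against 3 with lists of equal length (adjusted p = 0.0471, Fisher's exact test) and with a −log10 q-value of at least 5 (adjusted p = 0.0441, Fisher's exact test).

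Jak1, which serves type I and type II interferon receptors and the IL-6 family alike, had called regions in both directions. The gained region, chr4:101306225-101306621, lay 41096 bp before the start and had a peak in 12 of 12 stimulated libraries, 3 control unstimulated and 1 diabetic unstimulated library (adjusted p = 0.0101, Fisher's exact test). Its summit held 12, 13, 13, 8, 13 and 11 tags in control stimulated libraries 1 to 6 and 12, 7, 10, 8, 8 and 9 in diabetic stimulated libraries 1 to 6. The unstimulated peaks held 7, 8 and 10 tags in control libraries 1, 2 and 6 and 9 in diabetic library 4, within the range of the stimulated ones. The states differed in how many libraries listed a peak, and the heights of listed peaks overlapped. With a −log10 q-value of at least 5 it did not pass (adjusted p = 0.0881, Fisher's exact test).

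The first of the lost Jak1 regions, chr4:101253979-101254464, lay 11051 bp into the gene and was found in 12 of 12 unstimulated, 1 control stimulated and 4 diabetic stimulated libraries (adjusted p = 0.0235, Fisher's exact test). It held 9, 7, 13, 11, 12 and 11 tags in control unstimulated libraries 1 to 6 and 10, 16, 16, 14, 13 and 16 in diabetic unstimulated libraries 1 to 6. The stimulated peaks held 14 tags in control library 2, and 17, 17, 9 and 12 in diabetic libraries 1, 3, 5 and 6. This call ended with lists of equal length (adjusted p = 0.379, Fisher's exact test), with a −log10 q-value of at least 5 (adjusted p = 0.37, Fisher's exact test) and with adjustment over all regions (adjusted p = 0.0606, Fisher's exact test). The other, chr4:101198328-101198695, lay 66803 bp into the gene and was found in 12 of 12 unstimulated, 1 control stimulated and 5 diabetic stimulated libraries (adjusted p = 0.0489, Fisher's exact test). It held 19, 11, 15, 11, 15 and 14 tags in control unstimulated libraries 1 to 6 and 20, 19, 20, 16, 14 and 13 in diabetic unstimulated libraries 1 to 6. Against these stood 10 tags in control stimulated library 4, and 10, 12, 18, 10 and 11 in diabetic stimulated libraries 1, 2, 3, 4 and 6. With all deposited peaks, the call at 66803 bp sat at the threshold. It ended with adjustment over all regions (adjusted p = 0.126, Fisher's exact test). It also ended when any 1 of the 12 unstimulated libraries or control stimulated replicate 1, 2, 3 or 5 was left out (highest adjusted p 0.0522, Fisher's exact test). The region passed at 4 against 12 with lists of equal length (adjusted p = 0.0092, Fisher's exact test). With a −log10 q-value of at least 5 it passed at 3 against 12 (adjusted p = 0.0037, Fisher's exact test).

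**Figure D3:**
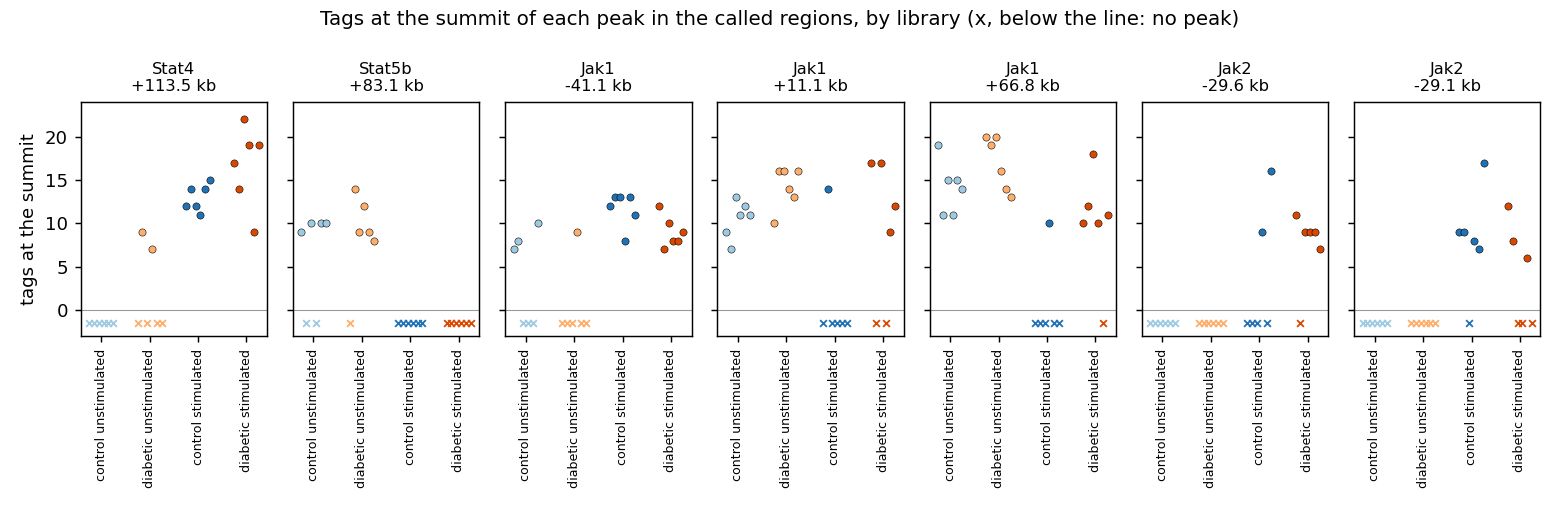
Tags at the summit of each peak in the 7 regions that passed the test, by group; each point is 1 library, and crosses below the line are libraries with no peak. Stimulated libraries fill the Stat4 region, with 9 to 22 tags, and leave the Stat5b region empty, while at Jak1 the heights of stimulated and unstimulated peaks overlap.

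The remaining Jak1 regions included 7 that were present in all 24 libraries, more than at any other of the genes. The one at the start, chr4:101264435-101265528, held 30 to 69 tags (fold 9.09 to 16.2, median 12.6), and others lay 18877 bp before the start (median fold 11.4) and 109576 bp into the gene (11.4). A region 11595 bp before the start was found in 12 stimulated and 8 unstimulated libraries, numbers that cannot reach an unadjusted p of 0.05 in Fisher's exact test. It passed with lists of equal length, at 12 against 3 (adjusted p = 0.00339, Fisher's exact test). With a −log10 q-value of at least 5, a region 30724 bp into the gene was called lost at 5 against 12 (adjusted p = 0.0214, Fisher's exact test). Jak3, the lymphoid kinase, had its single region at the start, chr8:71676206-71676881, in 24 of 24 libraries at a fold of 4.04 to 9.28 (median 6.38), the lowest median among the leading regions of the kinases.

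**Figure D4:**
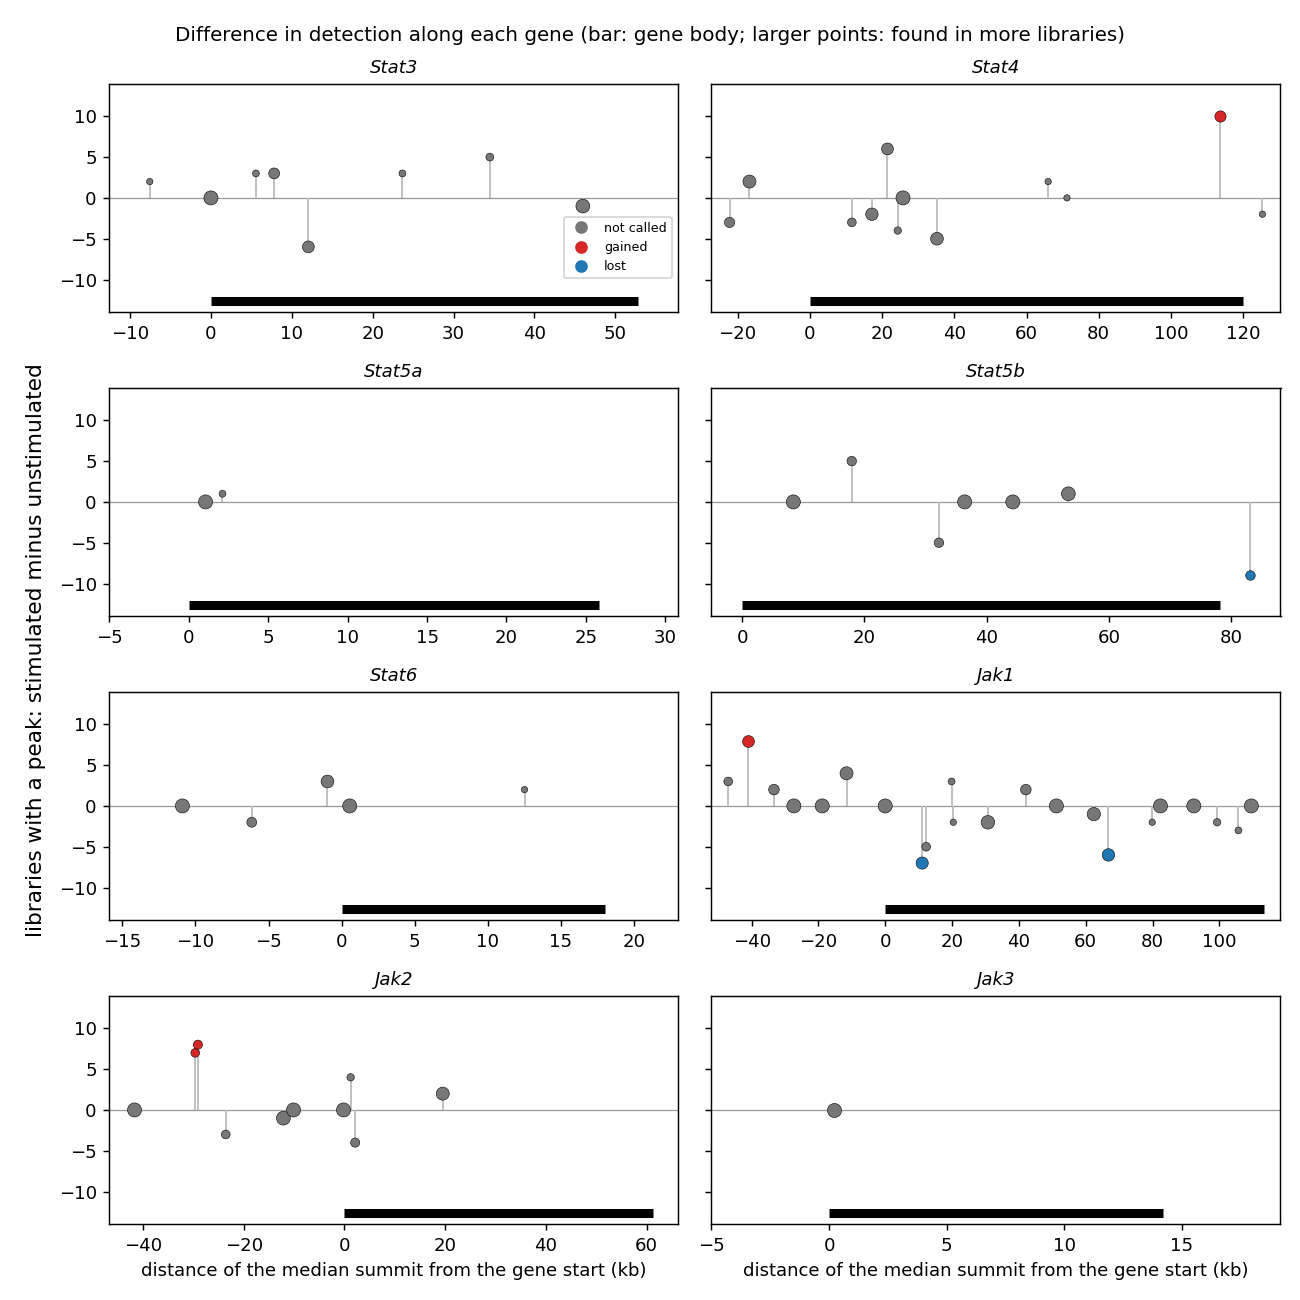
Position of each region along its gene (x axis, kb from the gene start in the direction of transcription) against the number of stimulated minus unstimulated libraries with a peak (y axis); point size grows with the number of libraries and the black bar is the gene body. The largest positive difference is at the far end of Stat4, and the largest negative one beyond the end of Stat5b.

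Within control macrophages, 11 regions of the genes could be tested, of which 2 were gained (18.2%) and 2 lost (18.2%). Over the genome 8.41% of 12111 regions were gained and 27.5% were lost. Those gained were the Stat4 region 113532 bp into the gene and the Jak2 region 29076 bp before the start (5 against 0, adjusted p = 0.0422, Fisher's exact test). Those lost were both Jak1 regions described above, each at 1 against 6 (adjusted p = 0.0422, Fisher's exact test). Apart from Stat4, these calls ended when 1 library was left out in 8 of 12 cases each: any control unstimulated replicate but 2, and control stimulated replicates 1, 2 and 4 for Jak2, 1, 3 and 4 for Jak1 at 11051 bp, and 1, 2 and 3 for Jak1 at 66803 bp (highest adjusted p 0.054, Fisher's exact test).

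Within diabetic macrophages, none of 10 testable regions passed (0.0% in each direction), against 5.47% gained and 3.44% lost of 11708 regions over the genome. The regions called in control macrophages were not among these 10. Their numbers of detections in diabetic libraries could not reach an unadjusted p of 0.05. The lowest adjusted p was 0.0559 (Fisher's exact test), shared by 4 regions with an unadjusted p of 0.0152. They were the Stat5b regions beyond the gene end and 17947 bp into the gene, the Jak2 region 29610 bp before the start and the Jak1 region 41096 bp before the start. With lists of equal length, 2 of 7 testable regions were gained in diabetic macrophages, where 17.7% of 8913 regions over the genome were gained and 14.6% lost, at Stat4 113532 bp into the gene (6 against 0, adjusted p = 0.0189, Fisher's exact test) and at Jak1 11595 bp before the start (6 against 1, adjusted p = 0.0469, Fisher's exact test). A call in control and none in diabetic macrophages does not show that the response differed. That difference was tested region by region (Zelen's exact test), and 0 of 6 testable regions of the genes passed, as did 0 of 10469 over the genome (0.0%). None of the regions called in control macrophages or in the pooled test was among those 6. Their numbers of detections could not reach an unadjusted p of 0.05, so the test could not decide for them. The lowest unadjusted p among the 6 testable regions was 0.417 (Zelen's exact test).

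Diabetic and control macrophages were also compared directly. Among unstimulated libraries 0 of 11 testable regions of the genes differed, and 0 of 8788 over the genome (0.0%; 137 with an unadjusted p under 0.05, and 0 of the genes' regions, by Fisher's exact test). Among stimulated libraries 0 of 10 differed, and 0 of 9681 over the genome (0.0%; 292 with an unadjusted p under 0.05, again 0 at these genes). With 6 libraries against 6, the smallest p that Fisher's exact test can give is 0.00216, which limits what could pass after adjustment. Among the 7 called regions, the largest gap between phenotypes after stimulation was at Jak1, 66803 bp into the gene, with 1 control against 5 diabetic libraries.

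The number of peaks per library at each gene gave a coarser measure, tested by exact permutation (two-sided). None of the 9 genes passed in any comparison, and over the genome 2.73% of 12802 genes had more and 10.0% had fewer peaks in stimulated libraries, with 0.0% in the comparisons of 6 against 6. Jak2 differed most, with 7.0 ± 1.65 peaks in stimulated and 5.67 ± 0.985 in unstimulated libraries (SD, n = 12 each; exact permutation p = 0.0362, adjusted p = 0.155). By group, its lowest, median and highest numbers were 5, 6.5 and 7 in control unstimulated, 4, 5 and 6 in diabetic unstimulated, 4, 6.5 and 10 in control stimulated, and 5, 7 and 9 in diabetic stimulated libraries, so all groups overlapped. Without control stimulated replicate 3 the Jak2 difference was 1.61 peaks and passed (exact permutation, adjusted p = 0.0466). Jak1 had 16.3 ± 1.37 peaks in control unstimulated and 13.7 ± 1.21 in control stimulated libraries, which did not pass (SD, n = 6 each; exact permutation p = 0.013, adjusted p = 0.103). After stimulation Jak1 had 17.2 ± 2.32 peaks in diabetic libraries, against that 13.7 (SD, n = 6 each; exact permutation p = 0.0195, adjusted p = 0.744). Lists were also shortest in control stimulated libraries, and the part of list length in these differences was not tested. For Stat4 the mean was 6.0 peaks in either state. Once every list was cut to the same length, Stat4 had 1.92 more peaks per stimulated library, which passed (exact permutation, adjusted p = 0.0106). The share of genes passing over the genome was not recorded with equal lists or with a library left out.

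**Figure D5:**
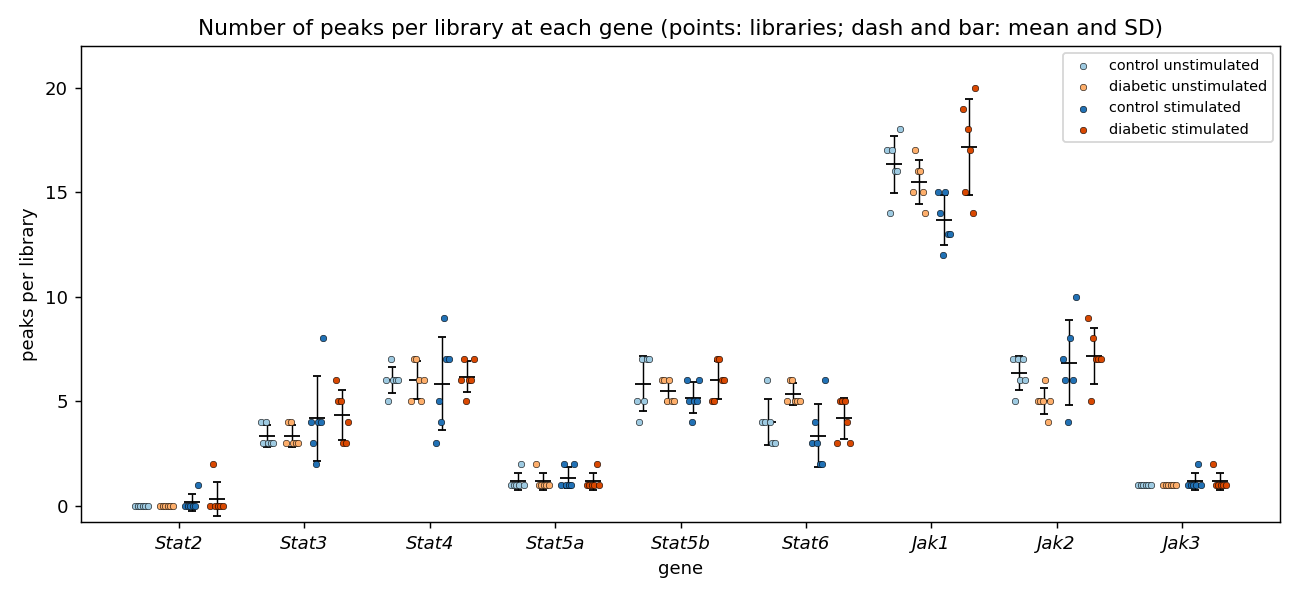
Number of peaks per library (y axis) at each of the 9 genes (x axis) in the 4 groups; each point is 1 library, with the mean and SD of 6. Jak1 holds the most, with group means between 13.7 and 17.2, while Stat5a and Jak3 stay near 1 and Stat2 near 0.

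The genes whose number of peaks followed that of Jak2 most closely over the 24 libraries were Insl6 (Pearson's r = 0.765), Gpatch4 (0.761) and Adgrf3 (0.755). The libraries share depth and list length, and the number of Jak2 peaks itself had r = 0.171 with list length. These correlations are a description, chosen as the highest of all genes.

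Open chromatin at the annotated starts was the most constant feature. Of the 12 promoter windows, 7 had a peak in all 24 libraries (58.3%), against 29.0% of 32851 windows in the genome, and 3 had none in any library (25% against 57.2%). The 7 were at Jak1, Jak2, Stat2, Stat3, Stat5a and both windows of Stat5b, while the windows without a peak were both at Stat4 and the outer start of Stat5a. Both Stat5b windows lay inside the gene body, and the regions there were centred 8389 and 36420 bp into the gene. The Jak3 window was reached by a peak in 17 libraries, 6 of 6 control stimulated, 5 of 6 diabetic stimulated, 4 of 6 control unstimulated and 2 of 6 diabetic unstimulated. The median summit of these peaks lay 211 bp past the start. Median heights at the 7 windows were lower in both stimulated groups. At Jak1 the median fold was 15.1 in control unstimulated and 14.5 in diabetic unstimulated, 10.3 in control stimulated and 11.4 in diabetic stimulated libraries. At Jak2 the same medians were 9.58, 9.34, 7.95 and 8.71, and at Stat3 they were 13.1, 13.7, 10.4 and 11.5. The 22770 regions present in every library shifted alike, with group medians of 10.0, 9.93, 7.9 and 8.85, so the lower heights at these genes were not particular to them. Fold is the authors' value within a list and was not tested between libraries.

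Genes that act with the JAKs and STATs were counted by the same test. Of 41 testable regions at 21 cytokine receptor genes, 6 were gained and 12 lost, where 9.19% were gained and 18.9% lost over the genome. A region in Il15ra, the IL-15 receptor alpha chain, was found in all 12 stimulated libraries and in 0 others (adjusted p = 6.17e-05, Fisher's exact test), one in Il7r in 10 and 0, and one 20888 bp from Ifnar1, a chain of the type I interferon receptor, in 9 and 0. A region 5650 bp from Il10ra, the ligand-binding chain for IL-10, went the other way, with 0 stimulated and 12 unstimulated libraries (adjusted p = 6.17e-05, Fisher's exact test), as did one 159 bp from Il6st, the shared gp130 chain (1 and 12), and one in Il12rb2 (0 and 8). By gene, 3 receptor genes only gained, 6 only lost, 2 did both and 10 had no call. Genes were not counted in this way over the genome, so these numbers have no background share.

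At 17 genes that restrain the pathway, 9 of 46 testable regions were gained and 9 lost. The gains included a region in Usp18, which curbs type I interferon signalling (12 and 0, adjusted p = 6.17e-05, Fisher's exact test), one in Pias2 (10 and 0) and one 2053 bp from Socs5 (9 and 0). The losses included regions 30183 bp from Socs6 (3 and 12) and 25175 bp from Socs2 (4 and 12), both suppressors of cytokine signalling, and one in Ptpn11, a phosphatase (3 and 11). Of 28 testable regions at 13 partner and target genes, 3 were gained and 4 lost. Bcl6, a repressor, gained one 10819 bp away (12 and 1, adjusted p = 0.000303, Fisher's exact test). Irf1, an interferon target, gained one 18611 bp away (8 and 0) and lost another 5104 bp away (0 and 10). Stam2, an adaptor protein, lost one 43133 bp away (1 and 12), and Ep300, a coactivator, lost one in its body (1 and 10). Beside these lists the background was the same 9.19% gained and 18.9% lost.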

How the data were processed

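ATAC-seq peak lists of 24 libraries were used, 1 per library. Per the submitters' processing notes, peaks were made on build mm10 with tools that included MACS2 2.1.1 and Bowtie2 2.2.6, beside FastQC 0.11.3 and Trim Galore. DiffBind 2.4.8 is also named. A shift of reads for the transposase is not given in the sources used here. The lists hold the authors' score, the deposited fold enrichment (a ratio at the summit), and the deposited −log10 p-value and −log10 q-value, with a smallest −log10 q-value of 1.302. In 99.99% of peaks the score was 10 times the −log10 q-value, cut to a whole number.

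Peaks sharing 1 bp or more were merged. Regions were given to the gene nearest their median summit, by RefSeq on GRCm38.p6. Detections were compared between groups by two-sided Fisher's exact test, and the interaction by Zelen's exact test. Benjamini-Hochberg adjustment ran over all regions of the genome with enough detections to pass 0.05 unadjusted. Tags at a summit were solved from the deposited fold, with its pseudocount of 1, and p-value, which fitted 100.0% of the peaks tried within 0.003. No 2 libraries shared more than 0.00242% of identical peaks. Scripts were tested on simulated data. Python 3.11.15, numpy 2.4.6, pandas 2.3.3, scipy 1.17.1 and matplotlib 3.10.9 were used.

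The members, gene lists and comparisons were chosen with earlier results of these data known. All 9 members were named, with their called regions, their leading region (most libraries, then highest fold), and at most 3 pathway genes per direction and role. Other genes of these families were not analysed here. The labels do not say that a replicate number marks the same mouse, and p-values measure the spread between these libraries. Alternatives tried were lists of equal length (41385 peaks), a −log10 q-value of at least 5, an overlap of 50 bp, adjustment over all regions, the region midpoint, a distance of 10 kb, the replicate block, each library left out, and a 100 bp merge added later.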

Additional observations from a re-analysis of the deposited data

Results flagged for a closer look

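In groups of 6, a library was picked out when its gap to the nearest other was large for the group's range by Dixon's test. Of 68 groups of values, 10 held such a library, 9 in numbers of peaks and 1 in fold; chance gives about 1 in 20, and small whole numbers reach the limit easily. Control stimulated replicate 6 had 8 peaks at Stat3, against 4 in the next library, and 1 peak at Stat2, where the other libraries of its group had 0. Diabetic stimulated replicate 2 had 2 peaks at Stat2, against 0. Control unstimulated replicate 3 had 6 peaks at Stat6, against 4. At Stat5a, control unstimulated replicate 5, diabetic stimulated replicate 5 and diabetic unstimulated replicate 1 each had 2 peaks, against 1. At Jak3, control stimulated replicate 5 and diabetic stimulated replicate 1 had 2 peaks, against 1. Diabetic unstimulated replicate 2 had the lowest fold of its group at the Jak2 region 10092 bp before the start, 9.98, with the next at 12.6.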

How the results depend on the processing

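The counts of called regions rested on the threshold and on list length, while the gained Stat4 region passed in the pooled test under every setting run. The region midpoint and the distance of 10 kb could not change its p. Against 4 gained and 3 lost in the pooled test, there were 5 lost with a −log10 q-value of at least 5 (23.7% over the genome). With adjustment over all regions 1 was lost (3.69%), and within 10 kb 1 was gained (9.19%). In control macrophages, against 2 and 2, there was 1 lost with equal lists (18.8% over the genome) and 1 gained with the stricter q-value (6.23%). There were 0 and 0 with adjustment over all regions (0.0% each), and 1 gained within 10 kb (8.41%). In diabetic macrophages, against 0, there were 2 gained with equal lists (17.7% over the genome), 1 with the stricter q-value (4.05%) and 1 with the 100 bp merge (5.48%). The number of peaks passed for 1 gene with equal lists (pooled) and for 1 gene within 10 kb (control). Shares of genes over the genome were not recorded under these settings, so both counts stand without a background. The cause was not tested.

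Leaving out each library in turn gave 4 to 6 gained and 2 to 6 lost in the pooled test, 1 to 2 gained and 0 to 5 lost in control macrophages, and 0 to 2 gained and 0 to 1 lost in diabetic macrophages. The number of peaks then passed for 0 to 1 gene in the pooled and in the control comparison. Shares over the genome were not recorded with a library left out. The largest shifts were 6 lost without diabetic stimulated replicate 6, 5 lost without diabetic stimulated replicate 2 or control stimulated replicate 6 (all pooled), and 5 lost without control unstimulated replicate 2 (control); 1 was lost in diabetic macrophages without diabetic unstimulated replicate 1, and there 2 were gained without diabetic stimulated replicate 2 and 1 without diabetic unstimulated replicate 4. Comparisons of phenotype and the interaction gave 0 called under every setting run.

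With the replicate number as a block, pairs of libraries were compared by an exact sign test. In the pooled test 4 of 17 testable regions of the genes were gained and 2 lost. In control macrophages the only 1 testable was gained, and in diabetic macrophages 0 of 3 passed. Over the genome 2222 were gained and 4381 lost of 19048 testable regions in the pooled test. The same counts were 441 and 1078 of 1818 in control and 641 and 403 of 1312 in diabetic macrophages. The block ended the pooled Jak1 call 66803 bp into the gene (adjusted p = 0.0653, exact sign test). The control calls at Jak2 and both Jak1 regions were not testable in this way, because too few of their pairs differed to pass. The block could not decide for them. Same-numbered libraries did not deviate together: r was between -0.00984 and 0.0159, 0 of 12 pairs exceeded 0.1, and a library correlated best with its own number in 1 of 6 control and 2 of 6 diabetic pairs, so the numbers were not shown to pair libraries. The series' design text says that each sample was divided between both states, but nothing says that the number marks the same sample. Low tag numbers limit the small regions, where a few tags decide whether a peak is listed.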
